A study of Mus musculus with 4 samples.

Results

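The Wnt family was followed across mouse embryoid body cells that differed in the Snai1 gene and in the surface receptor Flk1. Its members were the genes of the array table with a Wnt, Frizzled (Fzd), secreted Frizzled-related (Sfrp), Dickkopf (Dkk) or R-spondin (Rspo) symbol, together with Frzb, Lrp5, Lrp6, Axin2, Lef1, Apcdd1 and Sp5. By this rule, which goes by gene symbol, there were 48 members among 17097 genes. They were 19 Wnt ligands, 10 Frizzled receptors, 2 co-receptors, 4 secreted Frizzled-related proteins, 4 Dickkopf genes, 4 R-spondins and 4 target genes. The rule also took in Fzd10os, which is named for the strand opposite Fzd10 and is not itself a receptor gene.

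Wnt ligands are secreted lipid-modified proteins that bind a Frizzled receptor and the co-receptor Lrp5 or Lrp6. In the canonical branch this halts the breakdown of beta-catenin, which then acts with TCF and LEF factors on target genes such as Axin2 and Sp5, while ligands such as Wnt5a mostly act without beta-catenin. Secreted Frizzled-related proteins and Dickkopf proteins damp the signal at the cell surface and R-spondins amplify it. In the mouse embryo the pathway is required for the primitive streak and for mesoderm, from which Flk1+ blood, vessel and heart progenitors arise.

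There were 4 groups with 1 Affymetrix array each. The Snai1 knockout (KO) Flk1+ and control (F/F) Flk1+ cells, and the KO Flk1- and F/F Flk1- cells, were sorted with an antibody to Flk1, the product of Kdr, from embryoid bodies. These are aggregates of embryonic stem cells, formed here in hanging drops and left to differentiate spontaneously, so a fraction can hold several cell types. All 4 groups were labelled day 4 in their descriptions, but the source name of the KO Flk1- sample gave day 5. No Cre agent, clone number or culture count is given in the sources used here. With 1 array a group no replicate check is possible, no test was run, and every difference below compares 2 arrays. In such bulk samples, fewer cells of a type and less RNA per cell cannot be told apart.

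Values are on the log2 scale, so that a difference of 1 is 2-fold, and levels of different genes are not compared because probes differ in brightness. A floor at 3.19, which 40% of all values in the gene table fall below, marked the least signal taken as present, and 10195 to 10302 genes were above it per array. Kdr was at 9.03 in KO Flk1+ and 3.88 in KO Flk1- cells, and at 8.92 in F/F Flk1+ and 4.55 in F/F Flk1- cells, as the sort labels say. Snai1 lay below the floor on all 4 arrays and so does not check the genotype. Among 6142 genes below the floor on every array, called silent here, the differences had an SD of 0.17 to 0.20 (log2) in the 4 comparisons. That SD is background noise and not the spread between separate samples. The Gapdh control probes, a sign of RNA quality, gave a 3' signal above the 5' signal by (log2) 1.47 in KO Flk1+, 2.05 in F/F Flk1+, 1.99 in KO Flk1- and 1.76 in F/F Flk1- cells.

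Of the 48 members, 32 were above the floor on at least 1 array and 26 on all 4. The 16 that stayed below it on every array were Wnt1, Wnt2b, Wnt3, Wnt6, Wnt8b, Wnt10a, Wnt10b, Wnt16, Fzd4, Fzd9, Fzd10, Dkk2, Dkk4, Rspo1, Rspo2 and Lef1, with values of 1.44 to 3.19. Lef1, a DNA-binding partner of beta-catenin, came closest, at 3.189 in F/F Flk1+ cells. Among the 26 members above the floor on all arrays, 7 were highest in KO Flk1+ (26.9%), 8 in F/F Flk1+ (30.8%), 9 in KO Flk1- (34.6%) and 2 in F/F Flk1- cells (7.69%). Of the 9555 such genes in the whole table, 19.7% were highest in KO Flk1+, 25.4% in F/F Flk1+, 37.9% in KO Flk1- and 17% in F/F Flk1- cells.

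**Figure D1:**
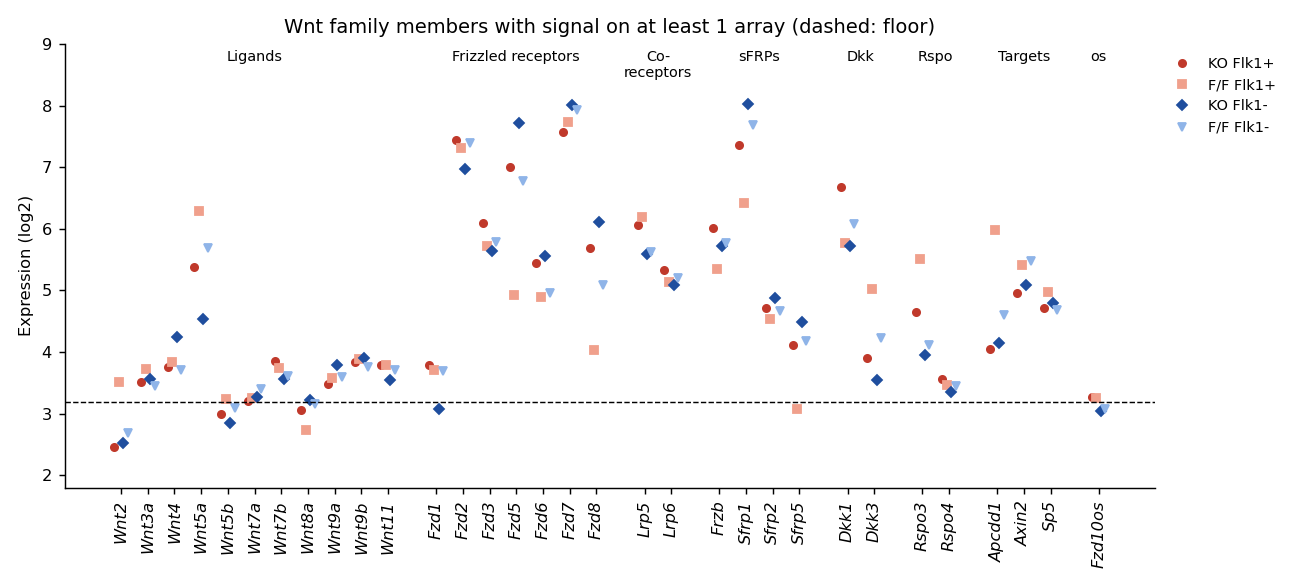
Expression (log2, vertical axis) of the 32 Wnt family members above the floor on at least 1 array, by role, with 1 point per array and the floor of 3.19 as a dashed line. Fzd5, Fzd8, Sfrp1 and Sfrp5 were lowest in F/F Flk1+ cells, and Apcdd1, Dkk3, Rspo3 and Wnt5a were highest there.

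Between genotypes, the receptors Fzd5 and Fzd8 stood higher in both knockout fractions, and Wnt5a, Dkk3 and Apcdd1 stood lower in both. In Flk1+ cells the deposited values differed by 1 or more (log2) for Fzd5, Fzd8 and Sfrp5, higher in KO, and for Apcdd1, Dkk3 and Wnt2, lower in KO. These were 3 and 3 of the 31 members above the floor on at least 1 of the 2 Flk1+ arrays. Sfrp5 and Wnt2 each had 1 of the 2 values below the floor, and with such values set to the floor neither reached 2-fold, which left 2 higher and 2 lower, beside 81 higher and 94 lower of all genes. In the deposited values, 0.873% of all 10655 genes above the floor on at least 1 of these arrays were higher by that size and 0.976% lower. In Flk1- cells Fzd8 was higher and Wnt5a lower, 1 and 1 of 29 members, where 0.389% of 10533 genes were higher and 0.949% lower. The median difference of the members was close to 0 in each fraction, at -0.01 in Flk1+ and -0.04 in Flk1- cells, beside -0.05 and 0.04 over all genes. Their median size of difference, without sign, was 0.24 in Flk1+ and 0.20 in Flk1- cells, beside 0.18 and 0.15 over all genes.

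Fzd5, a Frizzled receptor needed in the mouse for placental and yolk sac vessels, was at 7.0 in KO Flk1+ and 4.92 in F/F Flk1+ cells, and at 7.71 in KO Flk1- and 6.78 in F/F Flk1- cells. Both knockout arrays were above the control array of their fraction, by 2.08 (4.23-fold) in Flk1+ and 0.94 in Flk1- cells, and F/F Flk1+ was the low array. The second probe set of Fzd5 was below the floor on all 4 arrays, with differences of the same sign (0.41 in Flk1+ and 0.14 in Flk1- cells). Fzd8, a receptor of the canonical branch, was at 5.68 in KO Flk1+ and 4.03 in F/F Flk1+ cells, and at 6.12 in KO Flk1- and 5.08 in F/F Flk1- cells. It was the only member at 2-fold in the same direction in both fractions, by 1.65 (3.14-fold) in Flk1+ and 1.04 (2.05-fold) in Flk1- cells. After centring the arrays on the median of detected genes its difference in Flk1- cells was 0.98.

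The other Frizzled receptors were nearer to equal between genotypes. Fzd6, a receptor known for planar cell polarity in mouse hair, was at 5.45 in KO Flk1+ and 4.90 in F/F Flk1+ cells, and at 5.56 in KO Flk1- and 4.96 in F/F Flk1- cells, so that both knockout arrays were above both control arrays. Fzd7, which is known for its role in the self-renewal of stem cells, was at 7.56 in KO Flk1+ and 7.74 in F/F Flk1+ cells, and at 8.01 in KO Flk1- and 7.93 in F/F Flk1- cells. Its genotype differences of -0.17 and 0.08 were within about the SD of silent genes. Fzd3, also a polarity receptor, was at 6.10 in KO Flk1+, 5.72 in F/F Flk1+, 5.64 in KO Flk1- and 5.79 in F/F Flk1- cells. All 6 of its probe sets were above the floor and higher in KO Flk1+ cells, by 0.38 to 0.62, and in Flk1- cells they ranged from -0.15 to 0.18.

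Fzd2, which can take up Wnt5a, was at 7.44 in KO Flk1+ and 7.31 in F/F Flk1+ cells, and at 6.97 in KO Flk1- and 7.39 in F/F Flk1- cells. Its 3 probe sets disagreed in size but not in sign, from 0.13 to 1.04 in Flk1+ and from -0.60 to -0.42 in Flk1- cells. Fzd1 was at 3.78 in KO Flk1+, 3.71 in F/F Flk1+, 3.08 in KO Flk1- and 3.69 in F/F Flk1- cells, and KO Flk1- was the only array on which it was below the floor. The co-receptor Lrp5 was at 6.06 in KO Flk1+ and 6.19 in F/F Flk1+ cells, and at 5.60 in KO Flk1- and 5.63 in F/F Flk1- cells. Lrp6 was at 5.32 in KO Flk1+, 5.13 in F/F Flk1+, 5.08 in KO Flk1- and 5.20 in F/F Flk1- cells. The co-receptors thus differed between genotypes by -0.13 to 0.19, near the SD of silent genes.

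Of the 19 ligands, Wnt5a was the one with the clearest difference. Wnt5a, which drives convergent extension and limb and trunk outgrowth in the mouse, was at 5.37 in KO Flk1+ and 6.28 in F/F Flk1+ cells, and at 4.53 in KO Flk1- and 5.69 in F/F Flk1- cells. Both control arrays were above both knockout arrays, and the differences were -0.91 in Flk1+ and -1.16 in Flk1- cells, the second 2.24-fold lower in KO. Its other probe set gave -0.89 and -1.04. Wnt2, a ligand of heart and vessel progenitors, was at 2.46 in KO Flk1+ and 3.51 in F/F Flk1+ cells, and at 2.53 in KO Flk1- and 2.68 in F/F Flk1- cells. It was above the floor in F/F Flk1+ cells only, and set against the floor it was at least 1.25-fold lower in KO Flk1+ cells.

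The remaining 9 ligands with signal stayed between 2.74 and 4.24, near the floor. Wnt3a, the ligand of paraxial mesoderm and the tail bud, was at 3.51 in KO Flk1+, 3.72 in F/F Flk1+, 3.57 in KO Flk1- and 3.45 in F/F Flk1- cells. Wnt8a, a primitive streak ligand, was at 3.06 in KO Flk1+ and 2.74 in F/F Flk1+ cells, both below the floor, and at 3.22 in KO Flk1- and 3.16 in F/F Flk1- cells. Wnt4 was at 3.75 in KO Flk1+ and 3.84 in F/F Flk1+ cells, and at 4.24 in KO Flk1- and 3.71 in F/F Flk1- cells, so KO Flk1- was its high array. Its difference in Flk1- cells was 0.53, the largest among these 9 in either fraction. Wnt5b, Wnt7a, Wnt7b, Wnt9a, Wnt9b and Wnt11, a ligand of cardiac mesoderm, differed between genotypes by -0.24 to 0.20.

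**Figure D2:**
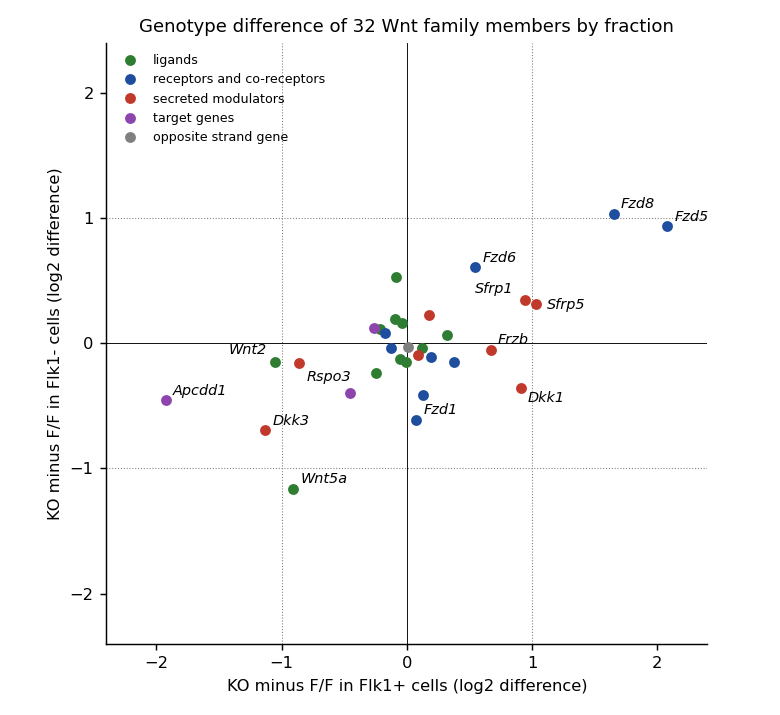
Log2 difference of KO minus F/F for 32 Wnt family members, in Flk1+ cells on the horizontal and in Flk1- cells on the vertical axis, coloured by role, with dotted lines at 2-fold and names from a size of 0.6 in either fraction. Fzd5 (2.08 and 0.94) and Fzd8 (1.65 and 1.04) lie at the upper right, Wnt5a (-0.91 and -1.16) at the lower left, and Dkk1 (0.91 and -0.36) at the lower right.

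Among the secreted antagonists the Frizzled-related proteins were at or above their control values in KO Flk1+ cells. Sfrp1, which binds Wnt ligands and is known from epithelia and neural progenitors, was at 7.37 in KO Flk1+ and 6.42 in F/F Flk1+ cells, and at 8.02 in KO Flk1- and 7.68 in F/F Flk1- cells. F/F Flk1+ was its low array, and the difference of 0.94 in Flk1+ cells came to 1.01 to 1.03 under quantile normalization, centring or cyclic loess. Sfrp5, in the mouse a marker of anterior endoderm, was at 4.11 in KO Flk1+ and 3.08 in F/F Flk1+ cells, and at 4.49 in KO Flk1- and 4.17 in F/F Flk1- cells. It was below the floor in F/F Flk1+ cells only, and the difference in Flk1+ cells was 1.03, at least 1.89-fold higher in KO. A second probe set gave 0.71.

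Frzb, the Frizzled-related antagonist also known as Sfrp3, was at 6.02 in KO Flk1+ and 5.35 in F/F Flk1+ cells, and at 5.72 in KO Flk1- and 5.77 in F/F Flk1- cells. Its 2 probe sets were 0.67 and 0.53 higher in KO Flk1+ cells and -0.05 and 0.02 apart in Flk1- cells. Sfrp2 was at 4.71 in KO Flk1+ and 4.53 in F/F Flk1+ cells, and at 4.88 in KO Flk1- and 4.66 in F/F Flk1- cells. All 4 genes of this group therefore had a positive sign in Flk1+ cells, from 0.18 to 1.03, with Sfrp2 near the SD of silent genes. Of all genes 4524 were higher and 6119 lower there by sign.

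The Dickkopf genes went different ways. Dkk1, an antagonist that binds Lrp5 and Lrp6 and is required for the mouse head, was at 6.68 in KO Flk1+ and 5.78 in F/F Flk1+ cells, and at 5.72 in KO Flk1- and 6.07 in F/F Flk1- cells. KO Flk1+ was its high array, and the genotype difference was 0.91 in Flk1+ and -0.36 in Flk1- cells. Its second probe set gave 0.55 and -0.13. Dkk3, a divergent member of the family that does not act as a plain Wnt antagonist, was at 3.90 in KO Flk1+ and 5.03 in F/F Flk1+ cells, and at 3.54 in KO Flk1- and 4.23 in F/F Flk1- cells. Both control arrays were above both knockout arrays, and the difference in Flk1+ cells was -1.13 (2.19-fold lower in KO). Its second probe set was below the floor on all 4 arrays and gave 0.23, and averaging the pair gave -0.45.

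Rspo3, the R-spondin required for vessels of the mouse placenta and yolk sac, was at 4.65 in KO Flk1+ and 5.51 in F/F Flk1+ cells, and at 3.95 in KO Flk1- and 4.11 in F/F Flk1- cells. F/F Flk1+ was its high array, and the difference was -0.86 in Flk1+ and -0.15 in Flk1- cells. Its second probe set, at 3.52 in KO Flk1+ and 3.59 in F/F Flk1+ cells, gave -0.07 in Flk1+ cells. Rspo4 was at 3.36 to 3.56 on the 4 arrays and differed by 0.09 in Flk1+ and -0.10 in Flk1- cells.

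The target genes were at or below control values in KO Flk1+ cells. Apcdd1, a Wnt-induced membrane antagonist of the pathway, was at 4.05 in KO Flk1+ and 5.98 in F/F Flk1+ cells, and at 4.14 in KO Flk1- and 4.60 in F/F Flk1- cells. F/F Flk1+ stood apart as the high array, and the difference in Flk1+ cells was -1.93 (3.80-fold lower in KO). Over its 3 probe sets that difference ranged from -1.93 to -0.99, and without the probe set ending in _x_at it was -0.99.

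Axin2, a feedback inhibitor and a general readout of canonical signalling, was at 4.96 in KO Flk1+ and 5.41 in F/F Flk1+ cells, and at 5.08 in KO Flk1- and 5.48 in F/F Flk1- cells. Both knockout arrays were below both control arrays, with differences of -0.45 in Flk1+ and -0.40 in Flk1- cells. Its second probe set gave -0.33 and 0.09. Sp5, a transcription factor induced directly by beta-catenin, was at 4.71 in KO Flk1+ and 4.98 in F/F Flk1+ cells, and at 4.80 in KO Flk1- and 4.68 in F/F Flk1- cells. Its differences of -0.27 and 0.13 had opposite signs and were small. Fzd10os was at 3.26 in KO Flk1+ and 3.26 in F/F Flk1+ cells, and below the floor in Flk1- cells.

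The start regions of 4 members far apart between genotypes are shown because Snai1 is a repressor that binds the E-box CAGGTG. Of the 48 members, 31 matched an entry in the RefSeq table of promoters (build GRCm38.p6), each of which spans 250 bases before to 50 bases after a gene start. Those printed had the 4 largest genotype differences in the deposited values among the matched members with signal, although that of Wnt2 was taken against a value below the floor. They lie on the minus strand at chr1:64737701-64738000 for Fzd5, chr19:42202203-42202502 for Sfrp5, chr19:30549447-30549746 for Dkk1 and chr6:18030396-18030695 for Wnt2. Each is given 5′ to 3′ as in the table, and capitals mark CAGGTG, searched on both strands.

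Fzd5: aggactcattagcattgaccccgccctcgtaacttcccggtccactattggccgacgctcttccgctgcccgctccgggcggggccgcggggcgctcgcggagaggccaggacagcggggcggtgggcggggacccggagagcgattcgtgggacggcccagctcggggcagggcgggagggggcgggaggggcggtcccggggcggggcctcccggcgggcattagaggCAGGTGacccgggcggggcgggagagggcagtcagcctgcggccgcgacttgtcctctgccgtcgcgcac

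Sfrp5: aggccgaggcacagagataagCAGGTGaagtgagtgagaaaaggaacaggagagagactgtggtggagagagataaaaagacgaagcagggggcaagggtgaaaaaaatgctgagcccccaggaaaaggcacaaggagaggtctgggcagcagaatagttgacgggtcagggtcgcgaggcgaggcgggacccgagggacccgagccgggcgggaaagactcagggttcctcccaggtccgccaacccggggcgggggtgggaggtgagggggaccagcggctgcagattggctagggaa

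Dkk1: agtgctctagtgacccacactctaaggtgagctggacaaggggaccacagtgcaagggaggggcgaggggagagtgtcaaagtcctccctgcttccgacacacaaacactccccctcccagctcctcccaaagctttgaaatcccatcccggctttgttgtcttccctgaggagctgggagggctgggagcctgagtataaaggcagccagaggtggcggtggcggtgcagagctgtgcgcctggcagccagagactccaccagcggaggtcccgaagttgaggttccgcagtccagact

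Wnt2: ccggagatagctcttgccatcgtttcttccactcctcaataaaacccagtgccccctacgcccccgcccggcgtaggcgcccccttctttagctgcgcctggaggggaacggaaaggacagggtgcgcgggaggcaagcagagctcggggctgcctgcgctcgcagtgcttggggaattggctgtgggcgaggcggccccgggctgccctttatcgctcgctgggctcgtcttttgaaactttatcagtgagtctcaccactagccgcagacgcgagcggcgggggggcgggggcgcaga

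CAGGTG occurred 1 time in the Fzd5 window, at -20 from the start, and 1 time in the Sfrp5 window, at -229. It occurred 0 times in the Dkk1 and Wnt2 windows. Over all 32851 promoters of the table, 20.2% held it on either strand. Of the 18 members with signal and an entry, 6 held it in at least 1 of their windows, namely Fzd5, Sfrp5, Wnt3a, Wnt4, Wnt5b and Wnt9b, and genes with several starts had more than 1 window. A TCF and LEF motif, CTTTGAT on either strand, was in none of the 4 windows shown (0 times in each). It was in 3.73% of all promoters and in those of Sp5, Wnt5b and Wnt11. These are matches of letters and not measured binding sites.

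The sort comparison asked which members went with Flk1. In F/F cells the deposited values of Rspo3 and Apcdd1 were 1 or more (log2) higher in Flk1+ than in Flk1- cells, and those of Fzd5, Sfrp1, Sfrp5 and Fzd8 were lower by that size. These were 2 and 4 of 31 members, where 1.2% of 10622 genes were higher and 1.51% lower. Sfrp5 was below the floor in F/F Flk1+ cells, and set to the floor it did not reach 2-fold, which left 2 higher and 3 lower, beside 111 higher and 130 lower of all genes. In KO cells 0 of 30 members were 2-fold apart by sort in either direction, where 1.62% of 10688 genes were higher and 2.17% lower. Dkk1 came nearest, at 0.97, and was at 1.12 to 1.14 under quantile normalization, centring or cyclic loess. Over all genes the median size of the sort difference was 0.25 in KO and 0.17 in F/F cells, and over the members it was 0.30 in KO and 0.18 in F/F cells. The difference between the genotypes in these counts was not tested.

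The values of the 6 members show where the sort differences lay. Fzd5 had a sort difference of -0.71 in KO and -1.86 in F/F cells, and Fzd8 one of -0.43 in KO and -1.05 in F/F cells. Sfrp1 was at -0.66 in KO and -1.26 in F/F cells, and Sfrp5 at -0.38 in KO and -1.09 in F/F cells (at least 1.97-fold lower in F/F Flk1+). By these probe sets all 4 were lower in Flk1+ cells of either genotype and nearer to 0 in KO cells, but the second probe set of Sfrp5, above the floor on all arrays, gave 0.10 in KO and -0.58 in F/F cells. Rspo3 was 0.70 higher in Flk1+ cells in KO and 1.40 higher in F/F, and its second probe set gave 0.35 in KO and 0.26 in F/F cells. Apcdd1 had a sort difference of -0.09 in KO and 1.38 in F/F cells, and 0.25 and 0.77 without the probe set ending in _x_at. Wnt5a and Dkk1 had the largest sort differences in KO cells, 0.84 and 0.97, against 0.59 and -0.29 in F/F cells.

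**Figure D3:**
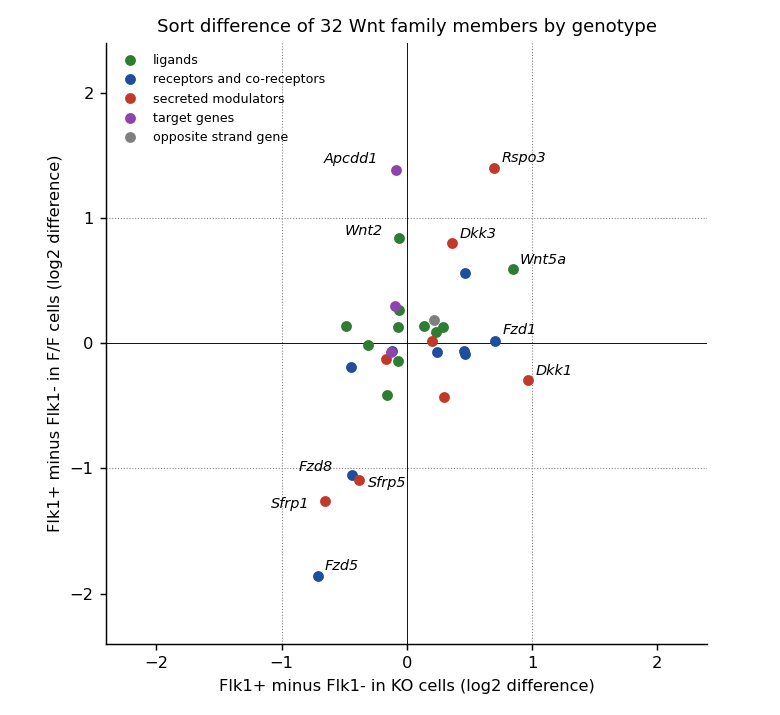
Log2 difference of Flk1+ minus Flk1- cells for 32 Wnt family members, in KO cells on the horizontal and in F/F cells on the vertical axis, with dotted lines at 2-fold. No point is past 2-fold in KO cells, while Apcdd1 and Rspo3 (1.38 and 1.40) lie above the upper line and Fzd5, Sfrp1, Sfrp5 and Fzd8 (-1.86 to -1.05) below the lower line for F/F cells.

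How far the genotype difference itself depended on the sort was taken as its value in Flk1+ less its value in Flk1- cells, after lower values had been raised to the floor. This difference of differences was at least 1 for Dkk1 (1.26) and Fzd5 (1.14) and at most -1 for Apcdd1 (-1.47), 2 and 1 of 32 members, where 0.584% of 10955 genes were at or above 1 and 0.822% at or below -1. When probe sets of a gene were averaged these values were 0.97 for Dkk1, 0.71 for Fzd5 and -0.85 for Apcdd1, and without probe sets of the _s_at and _x_at kind Apcdd1 was at -0.53. Frzb was at 0.72, Rspo3 at -0.71 and Wnt4 at -0.62. Over all genes the split at this size was 64 higher and 90 lower, against 99 and 53 after centring on the median of detected genes, 82 and 71 after quantile normalization and 87 and 68 after cyclic loess. Centring likewise changed the split of all genes from 93 higher and 104 lower to 120 and 84 for the genotype in Flk1+ cells. For the sort in KO cells it changed the split from 173 and 232 to 223 and 147, with a shift of the median over all genes from -0.08 to 0.09.

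Other genes of the pathway are given from lists that do not overlap with the members but do overlap with each other. Lgr5, Znrf3, Rnf43 and Notum are in both the secretion and membrane list and the list of other targets. Mesp1 and Tbx6 are in both the list of other targets and the primitive streak markers. Among genes of Wnt secretion and of regulation outside the cell or at its membrane, 15 of 17 were named on the array and 9 had signal in Flk1+ cells, of which 7 were higher and 2 lower in KO by sign, with a median difference of 0.48. Of all genes counted there, 4524 were higher and 6119 lower by sign. Cer1, a secreted antagonist of Nodal, BMP and Wnt, was at 7.50 in KO Flk1+ and 5.32 in F/F Flk1+ cells, and at 8.15 in KO Flk1- and 7.45 in F/F Flk1- cells. Gpc4, a cell surface proteoglycan that modulates Wnt signalling, was at 8.41 in KO Flk1+ and 7.23 in F/F Flk1+ cells, and at 8.50 in KO Flk1- and 8.06 in F/F Flk1- cells. Cer1 and Gpc4 were the 2 members of this list at 2-fold between genotypes, and F/F Flk1+ was the low array of each, as for Fzd5. They were 2 of the 9 with signal in Flk1+ cells, where 0.873% of all genes were higher in KO by that size. Lgr4, a receptor of R-spondins, was lower in Flk1+ than in Flk1- cells, with a sort difference of -1.24 in KO and -0.53 in F/F cells. The difference of differences was 1.48 for Cer1.

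Of the co-receptors and planar polarity genes, 13 of 15 had signal in either fraction, with medians of -0.17 in Flk1+ and 0.00 in Flk1- cells between genotypes. Celsr2, a polarity cadherin, was at 5.55 in KO Flk1+ and 4.39 in F/F Flk1+ cells, and at 5.75 in KO Flk1- and 5.60 in F/F Flk1- cells. Dact1, a Dishevelled-binding regulator, was at 4.62 in KO Flk1+ and 5.41 in F/F Flk1+ cells, and at 4.67 in KO Flk1- and 5.76 in F/F Flk1- cells. They were the 2 of this list past 2-fold between genotypes, Celsr2 higher in Flk1+ (1.17) and Dact1 lower in Flk1- cells (-1.09). That was 1 of 13 in each fraction, beside 0.873% of all genes higher in Flk1+ and 0.949% lower in Flk1- cells. In a list of this size such counts do not set the list apart. The sort difference of Celsr2 was -0.20 in KO and -1.21 in F/F cells, and its difference of differences was 1.01.

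For the intracellular core of the pathway the median differences between genotypes were close to 0. All 26 of its genes named on the array (28 in the list) had signal, and the medians were 0.00 in Flk1+ and -0.01 in Flk1- cells. Of these genes 0 were 2-fold apart between genotypes in either fraction, beside 1.85% of all genes in Flk1+ and 1.34% in Flk1- cells. In a list of this size, a count of 0 beside such shares does not set the list apart. The median size of difference, without sign, was 0.21 in Flk1+ and 0.14 in Flk1- cells, beside 0.18 and 0.15 over all genes. Ctnnb1, which encodes beta-catenin, was at 9.96 in KO Flk1+, 9.97 in F/F Flk1+, 9.98 in KO Flk1- and 10.02 in F/F Flk1- cells. Tcf7l2, a TCF factor, was at 7.74 in KO Flk1+ and 6.80 in F/F Flk1+ cells, and at 7.84 in KO Flk1- and 7.45 in F/F Flk1- cells. Its difference of 0.94 in Flk1+ cells and that of -0.93 for Tle3, a Groucho-type co-repressor, were the largest of this list in that fraction. Ctnnb1, Tcf7l2 and Tle3 were named after their values were seen. Tle4, another co-repressor, was lower in Flk1+ cells, with a sort difference of -1.12 in KO and -0.64 in F/F cells.

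The list of other genes reported as Wnt targets had 20 of 27 genes with signal in Flk1+ cells. Its median genotype difference was -0.13 in Flk1+ and -0.15 in Flk1- cells. By sign 9 were higher and 11 lower in KO Flk1+ cells, beside 4524 higher and 6119 lower of all genes. In Flk1- cells 13 of 17 were lower by sign, beside 5984 higher and 4540 lower of all genes. Ascl2, a stem cell and trophoblast transcription factor, was at 5.6 in KO Flk1+ and 3.80 in F/F Flk1+ cells, and at 6.20 in KO Flk1- and 5.10 in F/F Flk1- cells. It was 2-fold higher in KO in both fractions (1.79 and 1.10). Ccnd2, a G1 cyclin, was at 5.57 in KO Flk1+ and 6.31 in F/F Flk1+ cells, and at 5.03 in KO Flk1- and 6.34 in F/F Flk1- cells. Its difference in Flk1- cells was -1.31. Zcchc12 was at 2.49 in KO Flk1+ and 4.29 in F/F Flk1+ cells, and Tnfrsf19, a receptor of the TNF family, at 2.53 in KO Flk1+ and 3.78 in F/F Flk1+ cells. Against the floor these were at least 2.14-fold lower in KO for Zcchc12 and at least 1.5-fold lower for Tnfrsf19.

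Myc, a growth-promoting transcription factor, was at 7.09 in KO Flk1+ and 7.86 in F/F Flk1+ cells, and at 5.99 in KO Flk1- and 6.76 in F/F Flk1- cells. It was 1.10 higher in Flk1+ cells of either genotype. Dusp4, a phosphatase of ERK feedback, had a sort difference of 1.0 in KO and 0.01 in F/F cells. For Ccnd1, another G1 cyclin, the difference of differences was -1.10, as it was for Zcchc12, with 5.61 in KO Flk1+, 6.24 in F/F Flk1+, 6.03 in KO Flk1- and 5.57 in F/F Flk1- cells.

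Markers of cell types that the fractions could hold moved in the same comparisons. Of 9 pluripotent and epiblast markers with signal in Flk1+ cells, 8 were 2-fold or more higher in KO, with a median of 1.52. Of all genes 0.873% were higher there by that size. In Flk1- cells 11 of 11 were higher by sign, with a median of 0.74, beside 5984 higher and 4540 lower of all genes. The summed level of these markers on the linear scale was 1030 in KO Flk1+, 412 in F/F Flk1+, 2500 in KO Flk1- and 1420 in F/F Flk1- cells. Sox2, Esrrb, Zfp42 and Dppa3 were below the floor in F/F Flk1+ cells. For 10 epithelial markers, 9 were higher in KO Flk1+ cells by sign and 5 by 2-fold. Of all genes 4524 were higher and 6119 lower there by sign, and 0.873% higher by 2-fold. The summed level of the epithelial markers was 2150 in KO Flk1+, 1330 in F/F Flk1+, 2710 in KO Flk1- and 2100 in F/F Flk1- cells. F/F Flk1+ was thus the low array of both lists, as it was for Fzd5, Fzd8, Sfrp1 and Sfrp5.

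Lateral plate and cardiac markers had the opposite order between genotypes. In Flk1+ cells 10 of 11 with signal were lower in KO by sign, beside 4524 higher and 6119 lower of all genes. In Flk1- cells 12 of 12 were lower, beside 5984 higher and 4540 lower of all genes. The summed level of these markers was 735 in KO Flk1+, 1860 in F/F Flk1+, 501 in KO Flk1- and 1510 in F/F Flk1- cells. Both control arrays were above both knockout arrays, as for Wnt5a and Dkk3. Of 9 fibroblast feeder markers 4 had signal, and these 4 were lower in KO Flk1+ cells by sign, as were 6119 of all genes, against 4524 higher. The summed level of all 9 was 475 in KO Flk1+, 800 in F/F Flk1+, 284 in KO Flk1- and 424 in F/F Flk1- cells, most of it from Fn1, which was at 8.70 in KO Flk1+ and 9.26 in F/F Flk1+ cells. Col1a1, a fibrillar collagen, was at 3.99 in KO Flk1+ and 6.53 in F/F Flk1+ cells. Col3a1 and Postn had Flk1+ differences of -2.06 and -1.71 with the KO Flk1+ value below the floor, and Col1a2, Thy1, S100a4, Lox and Dcn were below the floor on every array.

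Primitive erythroid markers had a summed level of 57.1 in KO Flk1+, 159 in F/F Flk1+, 58.0 in KO Flk1- and 2880 in F/F Flk1- cells, so that F/F Flk1- was far above the rest. Endothelial markers were at 494 in KO Flk1+, 549 in F/F Flk1+, 112 in KO Flk1- and 112 in F/F Flk1- cells, and primitive streak markers at 408 in KO Flk1+, 521 in F/F Flk1+, 369 in KO Flk1- and 334 in F/F Flk1- cells. Endoderm markers were at 300 in KO Flk1+, 298 in F/F Flk1+, 464 in KO Flk1- and 509 in F/F Flk1- cells. These sums hid opposite signs. In each fraction 5 of 8 endoderm markers with signal were higher in KO by sign, with medians of 0.64 in Flk1+ and 0.33 in Flk1- cells. Over all genes 4524 were higher and 6119 lower in Flk1+ cells, and 5984 higher and 4540 lower in Flk1- cells. The other 3 endoderm markers with signal were lower, namely Afp, Ttr and Apob in Flk1+ cells and Ttr, Apoa1 and Apob in Flk1- cells. Ttr was furthest, at -2.1 in Flk1+ and -2.68 in Flk1- cells. Of the 6 neural markers on the array, 1 to 3 were above the floor per array. The part of these cell types in the Wnt family differences was not tested.

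**Figure D4:**
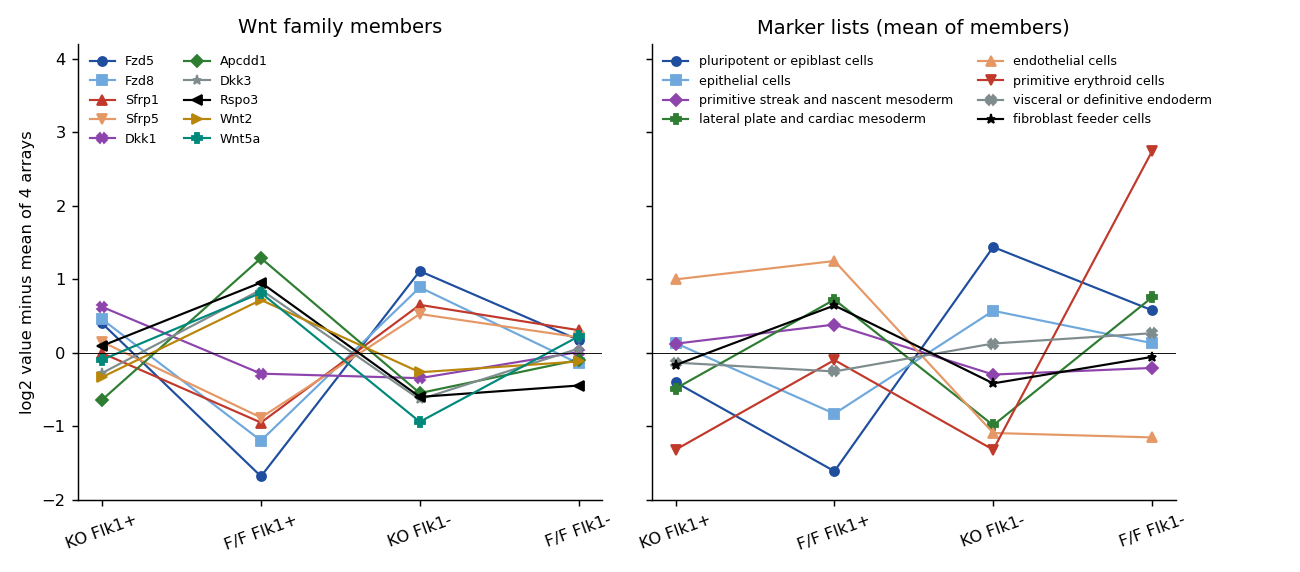
Log2 value minus its mean over the 4 arrays, for the 10 Wnt family members with a difference of 1 or more in at least 1 comparison or in the difference of differences (left) and for the mean of 8 marker lists (right), with lines joining the arrays only to guide the eye. Fzd5, Fzd8, Sfrp1 and Sfrp5 are lowest in F/F Flk1+ cells, as are the pluripotent and epithelial lists, and Wnt5a and Dkk3 are lower in KO than in F/F cells of each fraction, as is the lateral plate list.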

How the data were processed

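Expression was measured on 4 Affymetrix arrays from amplified total RNA, per the labels' protocols. The authors deposited a log2 value per array for each of 45141 probe sets, made with RMA and limma, per the submitters' processing notes, whose versions and roles are not given in the sources used here. They were used as the authors deposited them, and 0 columns were left out. RMA brings the arrays to a like distribution, so an overall shift between samples would not be seen.

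Control probe sets (104) were dropped. Of the rest, 28898 were paired with 1 gene (17097 genes), 551 with several and 15588 with none in the platform annotation, and 0 symbols changed when updated. Each gene took its probe set with the highest mean over 4 arrays. Differences were counted at 1 or more (2-fold) where at least 1 of the 2 arrays exceeded the floor, and folds against a value below it are bounds against the floor. The counting was tested on simulated data. Every member is named, and of other pathway genes those 2-fold apart in at least 1 comparison, up to 8 a list, except where stated. The members and lists were chosen with earlier results of these data known. Tools were Python 3.11.15, numpy 2.4.6, pandas 2.3.3, matplotlib 3.10.9 and R 4.3.3, with limma 3.58.1 for normalization alternatives (quantile, cyclic loess with span 0.3 and 3 rounds). The other alternatives were centring, 1.5-fold and 3-fold rules, a floor at the median or none, values set to the floor, the mean of probe sets, and leaving out probe sets with an _s_at or _x_at suffix. The number of arrays limits the precision.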

Additional observations from a re-analysis of the deposited data

Results flagged for a closer look

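Dkk1 had genotype differences of opposite sign in the 2 fractions, 0.91 in Flk1+ and -0.36 in Flk1- cells, a difference of differences of 1.26. It was picked by a size rule chosen after the data were seen. Its second probe set gave 0.55 in Flk1+ and -0.13 in Flk1- cells, the Flk1- value being within the background noise of silent genes (SD up to 0.20). With 1 array a group the difference was not tested.

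A probe set of Fzd2 that was not used, since another of the gene was brighter, was 1.04 higher in KO Flk1+ than in F/F Flk1+ cells and 1.03 higher in KO Flk1+ than in KO Flk1- cells. The probe set used gave 0.13 and 0.46 for these comparisons. Both probe sets were above the floor on all 4 arrays, and which is nearer to the transcript level was not tested. No group had enough arrays to look for an outlying sample.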

How the results depend on the processing

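No paired analysis was possible because the groups share no replicate numbers, with 1 array each, and there was no replicate to omit. An additive model of genotype and fraction was not fitted, since the difference of differences would serve as its error. With the 1.5-fold rule 11 (Flk1+) and 6 (Flk1-) members were apart between genotypes, 6 by sort in KO cells, and 9 in the difference of differences. Of all genes 7.68%, 5.51%, 15.0% and 9.7% were apart at that size in these comparisons. With the 3-fold rule the counts were 3, 0, 0 and 0, and 1 by sort in F/F cells. Of all genes 0.554%, 0.399%, 1.01% and 0.201% were apart at that size, and 0.96% by sort in F/F cells. Under quantile normalization, centring or cyclic loess 1 member was apart by sort in KO cells, beside 3.42% to 3.59% of all genes. Centring left 1 between genotypes in Flk1- cells, beside 1.39% of all genes. With no floor, 1 was apart by sort in KO cells, beside 2.4% of all genes. With the mean of probe sets 3 were apart by sort in F/F cells and 1 in the difference of differences. Of all genes 2.12% and 0.931% were apart there.

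The members' median moved by 0.05 or more with a floor at the median, to 0.095 (genotype, Flk1+), 0.025 (genotype, Flk1-) and -0.066 (sort, F/F). For the genotype in Flk1- cells it was -0.098 with no floor and -0.103 after centring. For the sort in KO cells, at -0.066 in the deposited values, it was 0.067 with no floor, 0.025 after quantile normalization, 0.088 after centring, 0.013 after cyclic loess, 0.088 with the mean of probe sets and 0.071 without probe sets ending in _s_at or _x_at. These medians are close to 0 and have no settled sign.

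Of the 6 members apart between genotypes in Flk1+ cells, Fzd5 and Fzd8 stayed past 2-fold under all 8 alternatives other than size rules, with ranges of 1.25 to 2.17 and 1.65 to 1.73. Wnt2 was lost under 3 (-0.32 with values set to the floor), Sfrp5 under 2 (0.92 and 0.87), and Apcdd1 and Dkk3 under 1 each (-0.99 and -0.45). Wnt5a in Flk1- cells stayed past it under all 8. By sort in F/F cells Fzd5, Fzd8 and Sfrp1 stayed past it, Rspo3 was lost under 1 (0.83), and Apcdd1 (0.77 and 0.94) and Sfrp5 (-0.98 and -0.84) under 2 each. The cause of these changes was not tested. No member past 2-fold changed sign under these alternatives (0 cases). Several alternatives could not move some values, however. The floor settings left Fzd5, Fzd8, Sfrp1 and Wnt5a as they were, since each was above the floor on all 4 arrays. Fzd8 and Sfrp1 have 1 probe set each, so the probe set settings could not change them either. Fzd5 and Wnt5a have no probe set ending in _s_at or _x_at, so leaving those out changed nothing for them. Genes near the floor, most ligands among them, can show only small differences here.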
